A study of Mus musculus with 27 samples.

Results

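The type I interferon response genes are a set of 37 genes, named by symbol, whose transcription rises when a cell meets interferon alpha or beta. All 37 were found in a count table of 47729 mouse genes, and all 37 were among the 14059 genes that passed the filter on low counts. The table held bulk RNA-seq of CD8+ T cells sorted from MC38 tumours, a mouse colon adenocarcinoma line grown in mice. Cells that bound antibodies to CD45, CD3 and CD8 were split by surface PD-1, an inhibitory receptor of antigen-experienced T cells, and by KLRG1, a lectin-like receptor of effector T cells. The mice had received an isotype control (Iso) or a treatment (Tri, called TCT in the series text), whose components the sources used here do not give. There were 6 groups: Iso PD1-KLRG1- (4 libraries), Iso PD1-KLRG1+ (4), Tri PD1-KLRG1- (5), Tri PD1-KLRG1+ (4), Tri PD1+KLRG1- (5) and Tri PD1+KLRG1+ (5). No PD1+ library of Iso mice was analysed here, so PD1+ and PD1- cells are compared within Tri only and treatments within PD1- cells only. Not given in the labels are the strain, age and number of the mice, the time of sampling and whether libraries with equal replicate numbers came from the same mouse. P-values therefore measure the spread between these libraries, which may be partly technical.

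Interferon alpha and beta bind a receptor made of the chains IFNAR1 and IFNAR2, which carry the kinases TYK2 and JAK1. These phosphorylate transcription factors such as STAT2, which joins IRF9 in ISGF3, a complex that binds the interferon-stimulated response element in the promoters of its targets. The targets include antiviral effectors (the IFIT proteins, the oligoadenylate synthetases, MX1, RSAD2), sensors of foreign nucleic acid, the ubiquitin-like modifier ISG15, and regulators that sustain or end the response (IRF7 and USP18). In CD8+ T cells type I interferon acts during priming and, when it persists, is known as a feature of chronic stimulation. Interferon gamma, which T cells make themselves, signals through a receptor of its own and shares part of these targets.

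The element's core can be read in the promoters of several genes described below, shown because it is the sequence that ISGF3 is known to read. RefSeq promoter windows (build GRCm38.p6, 250 bases before to 50 bases after the start site) were given for 28 of the 37 genes. The windows were searched for GAAANNGAAA on either strand, which reads TTTCNNTTTC on the other. Each stretch below lies before the start site and is written 5′ to 3′ in the direction of the gene, with the matches and any overlap of them in capitals and 20 bases on each side.
Ifit1: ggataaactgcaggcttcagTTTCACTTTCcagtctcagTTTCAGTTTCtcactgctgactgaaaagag
Ifit3: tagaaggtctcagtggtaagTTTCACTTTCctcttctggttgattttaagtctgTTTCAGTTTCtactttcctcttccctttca
Isg15: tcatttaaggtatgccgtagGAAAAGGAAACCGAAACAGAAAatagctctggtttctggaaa
Stat2: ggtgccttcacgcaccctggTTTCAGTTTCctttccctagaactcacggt
Bst2: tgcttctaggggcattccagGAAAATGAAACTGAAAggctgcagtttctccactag
The Ifit1 stretch is chr19:34640765-34640833 on the plus strand and the Ifit3 stretch is chr19:34583353-34583436 on the plus strand, and each holds 2 matches. Isg15, at chr4:156200855-156200916 on the minus strand, holds 3 overlapping matches. Bst2, at chr8:71537567-71537622 on the minus strand, holds 2 overlapping matches, and Stat2, at chr10:128270256-128270305 on the plus strand, holds 1. A match was present in 11 of the 28 windows (39.3%), against 1079 of 27025 genes with a window of the same length (3.99%). Restricted to the bases before the start site, the shares were 9 of 28 (32.1%) and 3.46%. The other windows with a match before the start site were those of Oas3, Oas1a, Trim30a and Rsad2. Of the 9 genes called in any comparison below, Rtp4, Usp18, Oas2, Zbp1 and Ifi27l2a had no window in the table. Of the other 4, Ifit1 and Ifit3 held a match and Irf7 and Sp100 held none. A match describes these letters only and is no evidence that a factor bound there.

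Library totals ran from 6991521 to 26284630 counts, except Iso PD1-KLRG1+ replicate 3, which held 93198. Levels are given as CPM, the count divided by the TMM-scaled library size and multiplied by 1e+06. Iso PD1-KLRG1+ libraries had no count for 16.4% ± 9.07 (SD, n = 4) of 6963 well-expressed genes (median of at least 20 CPM), against group means of 0.0359% to 1.78% elsewhere. Comparisons with that group rest on such libraries. The mRNA of the sorted proteins followed the gates: Pdcd1, which encodes PD-1, was at 636 to 1612 CPM in PD1+ and at 0 to 206 CPM in PD1- libraries, and Klrg1 at 38.9 to 349 CPM in KLRG1+ and at 0 to 39.98 CPM in KLRG1- libraries. CD8 T cell marker genes (Cd3e, Cd3d, Cd3g, Cd8a, Cd8b1, Trac, Ptprc) summed to 6301 to 12905 CPM in all 27 libraries. The 15 myeloid markers summed to 2074 ± 1620 CPM in KLRG1- and 3536 ± 5510 CPM in KLRG1+ libraries of Iso mice (SD, n = 4 each), against 251 to 549 as the means of the Tri groups. Of the markers of plasmacytoid dendritic cells, the cells best known for making type I interferon, Klk1 had no count in any library and Siglech had counts in 1 of the 27 (2.37 CPM, in Tri PD1-KLRG1-). The other 3 were Ly6d, with a group mean of at most 0.177 CPM, and Ccr9 and Tcf4, whose values stand beside the comparisons. Library descriptions came in a plain form and in a form with a suffix (Iso replicate 4, Tri replicates 4 and 5), and this name series was a term of the model. The labels do not say what the suffix stands for.

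Within Tri mice the set was higher on average in both PD1- groups than in both PD1+ groups. The mean over the 37 genes of log2(CPM + 1) was 7.15 ± 0.115 (SD, n = 5) in Tri PD1-KLRG1-. It was 6.98 ± 0.207 (n = 4) in Iso PD1-KLRG1-, then 6.78 ± 0.168 (n = 4) in Tri PD1-KLRG1+. The PD1+ groups had 6.12 ± 0.284 (KLRG1-, n = 5) and 5.93 ± 0.219 (KLRG1+, n = 5). Iso PD1-KLRG1+ lay at 6.03 ± 0.609 (n = 4), with libraries from 5.32 to 6.596, a range that reaches from below every PD1+ library to above most of them. Every pair of neighbours in this order overlapped in range. Tri PD1-KLRG1+ (lowest library 6.53) and Tri PD1+KLRG1- overlapped through PD1+KLRG1- replicate 5 alone (6.62), its other libraries lying at 5.95 to 6.03. By gene, the highest group mean fell in Tri PD1-KLRG1- for 24 of the 37 and in Iso PD1-KLRG1- for 7. The lowest fell in Tri PD1+KLRG1+ for 18, in Tri PD1+KLRG1- for 13 and in Iso PD1-KLRG1+ for 6. In these bulk libraries, fewer cells with an active response and less RNA per cell cannot be told apart.

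**Figure D1:**
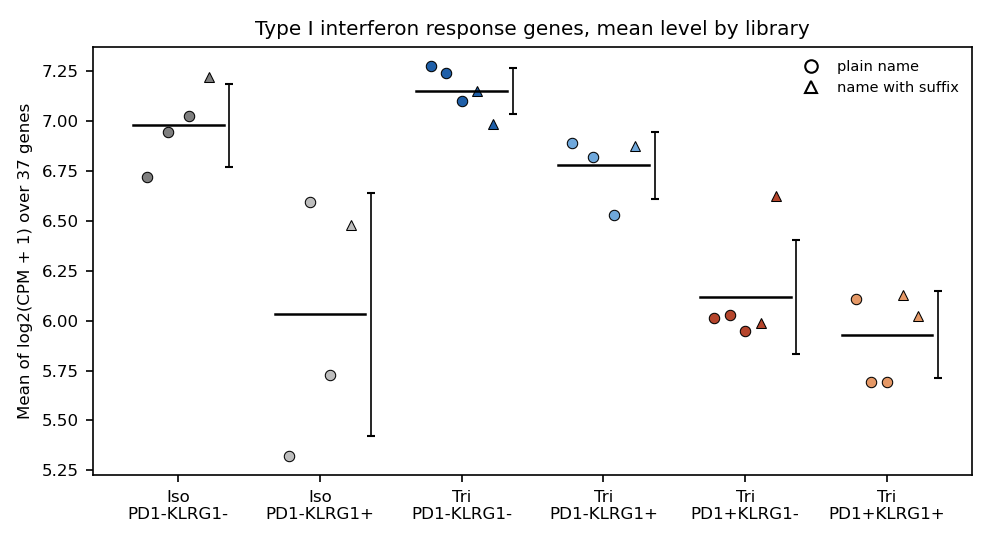
Mean of log2(CPM + 1) over the 37 genes (y axis) in each of the 27 libraries, by group (x axis). Points are libraries (triangles: names with the suffix), lines the group means and bars 1 SD; the PD1+ libraries lie between 5.69 and 6.62 and the Tri PD1- libraries between 6.53 and 7.27.

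**Figure D2:**
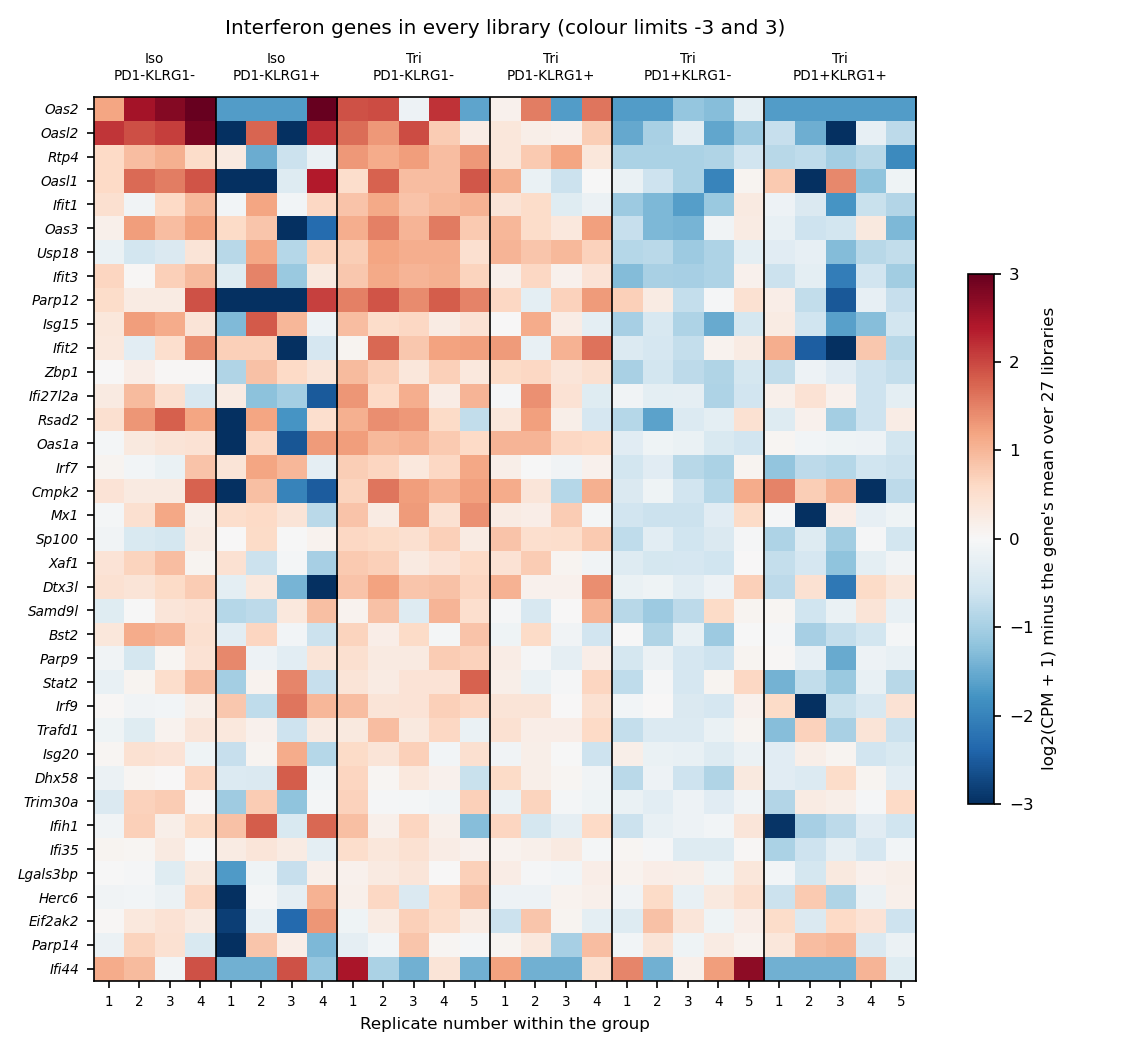
Each of the 37 genes (rows) in each library (columns, by group and replicate number), as log2(CPM + 1) minus the gene's mean over 27 libraries. The Tri PD1+ columns are mostly blue (below the mean) and the Tri PD1-KLRG1- columns mostly red, while the Iso PD1-KLRG1+ columns hold isolated dark cells where a gene had no count.

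Levels per kilobase of exon differed widely between the genes. In Tri PD1-KLRG1-, Ifi27l2a, a small mitochondrial protein gene, had the highest mean at 1901 CPM per kb, ahead of Ifit3 (309.7), Lgals3bp (248), Bst2 (229), Isg20 (218) and Isg15 (198). The lowest were Ifi44 at 0.546 and Oas2 at 1.68 CPM per kb. These 2 were the only genes with a mean below 10 CPM over the 27 libraries.

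The comparison of PD1+ with PD1- cells among Tri KLRG1- cells gave the most calls. A gene was called at an adjusted p under 0.05 in edgeR's quasi-likelihood test, with Benjamini-Hochberg adjustment over all 14059 genes. Of the 37 genes, 8 were lower in PD1+ cells and none was higher: Rtp4, Zbp1, Usp18, Ifit1, Sp100, Irf7, Ifit3 and Ifi27l2a. Over all genes tested, 0.939% were called lower. The 37 genes were chosen with earlier results of these data known, so shares of them called are a description only. In total 36 of the 37 had a negative log2 fold change (PD1+ minus PD1-), with a median of -0.96 against 0.06 for all genes. Every PD1+KLRG1- library lay below every PD1-KLRG1- library for 18 of the 37, against 3.4% of all genes.

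Among Tri KLRG1+ cells 5 genes were lower in PD1+ cells and none higher: Sp100, Rtp4, Usp18, Zbp1 and Oas2. This comparison shares no library with that of KLRG1- cells, but it may share the mice, and both came from the same fit. The background share called lower was 0.711%. A negative log2 fold change was found for 34 of the 37, with a median of -0.82 against -0.01 for all genes. The libraries did not overlap for 11 of the 37, against 2.82% of all genes. Rtp4, Usp18, Zbp1 and Sp100 were called in both gates. The number of calls moved with the model while the direction did not: 21 of the 37 were called in the KLRG1- gate when its 2 groups alone were fitted, and 29 by limma-voom with sample weights, all lower in PD1+. Those fits also called more of all genes, 6.76% and 14.4% in either direction, against 1.56%. Leaving out single libraries gave 7 to 8 calls in the KLRG1- gate and 2 to 5 in the KLRG1+ gate, where median-ratio scaling gave 3.

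**Figure D3:**
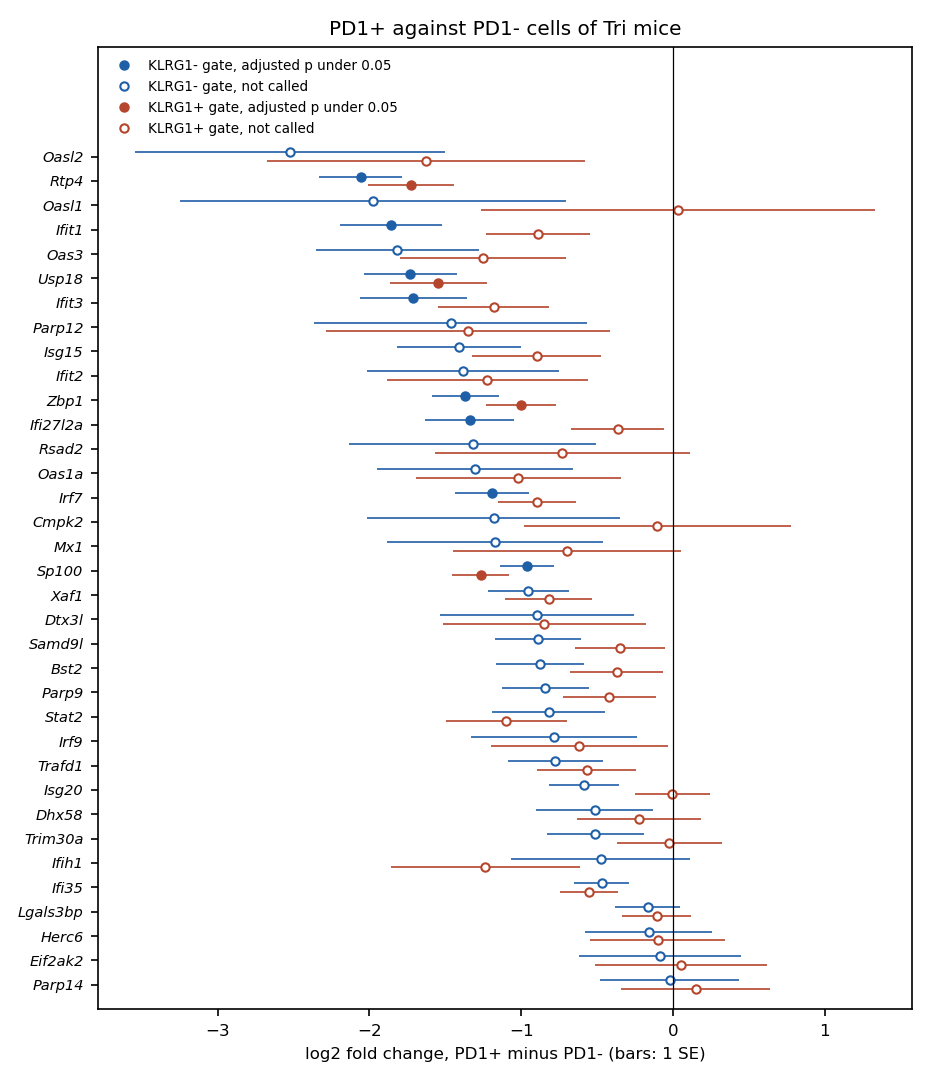
log2 fold change (x axis, PD1+ minus PD1-, bars 1 SE) of 35 of the 37 genes (y axis) in the KLRG1- gate (blue) and the KLRG1+ gate (red); Oas2 and Ifi44, with means below 10 CPM, are left out. Filled points are called; Rtp4, Usp18, Zbp1 and Sp100 are filled in both gates and nearly all points lie left of 0.

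Among the transcription factors, Irf7, which amplifies the response, was lower in PD1+KLRG1- cells. Irf7 (ENSMUSG00000025498) read 498, 465, 369, 459 and 659.9 CPM in the Tri PD1-KLRG1- libraries and 201, 235, 167, 154 and 314 CPM in the Tri PD1+KLRG1- libraries. No PD1+ library reached the lowest PD1- library, and the log2 fold change was -1.19 ± 0.24 (SE, adjusted p = 0.00567). Among KLRG1+ cells it read 333, 295, 276 and 327 CPM in PD1- and 129.6, 172, 164, 195 and 189 CPM in PD1+ libraries, which did not overlap either, yet it was not called (-0.89 ± 0.26, adjusted p = 0.0878). Stat2 and Irf9, components of ISGF3, were not called in either gate. Stat2 read 113, 102, 114, 114 and 298 CPM in PD1-KLRG1- and 50.1, 83.7, 60.05, 91.1 and 132 CPM in PD1+KLRG1- libraries, where replicate 5 was the highest on both sides and the groups overlapped. Stat2 in KLRG1+ cells read 98.0, 75.4, 84.8 and 136 CPM in PD1- and 31.8, 51.7, 39.1, 73.6 and 47.7 CPM in PD1+ libraries, without overlap (-1.097 ± 0.40, adjusted p = 0.221). Irf9 read 297, 202, 207, 254 and 236 CPM in PD1-KLRG1- and 146, 156, 113, 108 and 170.1 CPM in PD1+KLRG1-, again without overlap (-0.78 ± 0.55, adjusted p = 0.926). For PD1-KLRG1+ and PD1+KLRG1+ the Irf9 values were 203, 201, 155 and 212 against 232, 1.58, 97.2, 109.6 and 207 CPM, with replicate 2 of the last group nearly without counts.

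ISG15 is conjugated to proteins by enzymes that include HERC6 and removed by USP18, which also binds IFNAR2 and damps signalling. Usp18 (ENSMUSG00000030107) was lower in PD1+ cells of both gates. It read 304, 417, 393, 393 and 256 CPM in PD1-KLRG1- and 101, 104, 86.0, 96.6 and 149 CPM in PD1+KLRG1- libraries (log2 fold change -1.73 ± 0.31, adjusted p = 0.00152). Usp18 in KLRG1+ cells read 372, 327, 358 and 295 CPM in PD1- and 145, 154, 73.5, 102 and 110.3 CPM in PD1+ libraries (-1.55 ± 0.32, adjusted p = 0.00917). Neither pair of groups overlapped, though the KLRG1+ call ended without Tri PD1-KLRG1+ replicate 1 (adjusted p = 0.0511). Isg15 read 191, 148, 154, 119.5 and 137 CPM in PD1-KLRG1- and 50.05, 72.3, 52.3, 34.8 and 69.7 CPM in PD1+KLRG1-. Its groups were apart by more than their spread, but the adjusted p was 0.085 (-1.41 ± 0.41). Isg15 in KLRG1+ cells read 101, 218, 117 and 82.3 against 119, 66.2, 31.7, 41.0 and 67.9 CPM and overlapped (-0.90 ± 0.43, adjusted p = 0.426). Herc6 had values of -0.16 ± 0.42 and -0.10 ± 0.45 in the KLRG1- and KLRG1+ gates and was not called.

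The IFIT proteins bind foreign RNA and block its translation. All 3 genes had negative values in both gates, and Ifit1 and Ifit3 were lower in PD1+KLRG1- cells. Ifit1 (ENSMUSG00000034459) read 303, 367, 301, 329 and 346 CPM in PD1-KLRG1- and 77.2, 65.0, 52.4, 76.4 and 199.8 CPM in PD1+KLRG1- libraries (-1.85 ± 0.34, adjusted p = 0.00191). Ifit3 (ENSMUSG00000074896) read 486, 618, 568, 584 and 446 against 113, 141, 140.2, 145 and 304 CPM in the same groups (-1.71 ± 0.35, adjusted p = 0.00666). For both genes the groups did not overlap, and PD1+KLRG1- replicate 5 stood well above the other 4 PD1+ libraries. Ifit1 in KLRG1+ cells read 217, 243, 129.9 and 148 against 149, 123, 48.0, 105 and 89.3 CPM (-0.89 ± 0.34, adjusted p = 0.269). Ifit3 there read 309, 429, 304 and 368 against 178, 228, 65.0, 186 and 136 CPM (-1.18 ± 0.36, adjusted p = 0.13), without overlap and without a call. Ifit2 had values of -1.38 ± 0.63 and -1.22 ± 0.66. Ifit3 has a near-identical neighbour, Ifit3b, and reads the authors' counting could not place between them make its level uncertain.

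The oligoadenylate synthetases make the second messenger that activates RNase L, and the OASL proteins are their relatives. Their 5 genes had log2 fold changes from -4.93 (Oas2) to -1.30 (Oas1a) in the KLRG1- gate, none called. Every PD1+KLRG1- library lay below every PD1-KLRG1- library for Oas1a (47.1 ± 6 against 116 ± 20.3 CPM, SD, n = 5 each), Oas3 (41.4 ± 21.2 against 141 ± 32.3), Oasl1 (7.86 ± 4.10 against 31.6 ± 13.1) and Oasl2 (6.51 ± 2.89 against 36.6 ± 16.6). Among KLRG1+ libraries Oas1a (53.1 ± 7.96, n = 5, against 107 ± 17.5 CPM, n = 4), Oas3 (45.1 ± 18.6 against 106 ± 30) and Oasl2 (6.48 ± 4.44 against 18.5 ± 4.02) were again apart, and Oasl1 was not (14.5 ± 14.0 against 14.2 ± 8.46). The OAS genes lie in a cluster of similar sequence, so reads shared among them make single levels uncertain. Oas2 (ENSMUSG00000032690) was called in the KLRG1+ gate alone. It read 2.51, 8.26, 0 and 8.63 CPM in PD1-KLRG1+ libraries and had no count in any of the 5 PD1+KLRG1+ libraries. Against the limit that 3 counts over that group allow, 0.0370 CPM (counting error only), the PD1-KLRG1+ mean of 4.85 CPM was 131-fold higher. That factor takes no account of the spread between the PD1-KLRG1+ libraries. The call stood at the threshold (adjusted p = 0.0499) and ended in 8 of the 9 fits that left out a library of these groups (adjusted p = 0.0849 to 0.112). It held without Tri PD1-KLRG1+ replicate 3, the PD1- library with no count. Oas2 also had no count in 3 of the 4 Iso PD1-KLRG1+ libraries, and 53.6 CPM in the other. In PD1-KLRG1- it read 10.9, 11.4, 1.86, 13.2 and 0.0590 CPM and in PD1+KLRG1- 0, 0, 0.428, 0.306 and 1.58 CPM, and in Iso PD1-KLRG1- 6.26, 17.1, 20.7 and 25.6 CPM.

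Of the sensors of nucleic acid, Zbp1, which binds left-handed nucleic acid and can start necroptosis, was lower in PD1+ cells of both gates. Zbp1 (ENSMUSG00000027514) read 597, 511, 391, 509 and 389.7 CPM in PD1-KLRG1- and 157, 212, 180.0, 165 and 214 CPM in PD1+KLRG1- libraries (-1.37 ± 0.22, adjusted p = 0.000461). The KLRG1+ values were 463, 477, 401 and 437 against 186, 278, 246, 202 and 189 CPM (-1.003 ± 0.23, adjusted p = 0.0227). Neither pair overlapped, but the KLRG1+ call ended under median-ratio scaling (adjusted p = 0.0645) and in 7 of the 9 fits that left out a library (adjusted p = 0.0531 to 0.0893), all but those without PD1+KLRG1+ replicate 2 and PD1-KLRG1+ replicate 3. Ifih1, Dhx58 and Eif2ak2, which sense double-stranded RNA, had values from -1.24 to 0.05 over both gates and none was called.

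None of Bst2, Mx1, Rsad2, Cmpk2, Isg20 and Samd9l was called in either gate. Bst2, whose protein tethers budding virions, read 235, 169, 220.4, 141 and 267 CPM in PD1-KLRG1- and 145, 78.4, 126, 69.1 and 146 CPM in PD1+KLRG1- libraries (-0.88 ± 0.29, adjusted p = 0.163). Bst2 in KLRG1+ cells read 134, 219, 137 and 98.9 against 144, 72.8, 89.7, 99.3 and 142 CPM (-0.37 ± 0.31, adjusted p = 0.843). The groups overlapped in both gates. Mx1, a GTPase that blocks incoming viruses, averaged 53.5 ± 23.6 CPM in PD1+KLRG1- and 120.2 ± 40.2 in PD1-KLRG1- libraries (SD, n = 5 each). Rsad2, which encodes viperin, averaged 25.6 ± 13.6 and 63.9 ± 29.1 CPM, and its neighbour Cmpk2, a mitochondrial nucleotide kinase gene, 40.3 ± 27.2 and 92.2 ± 21.5 CPM. Isg20, an exonuclease gene, averaged 269 ± 40.6 and 406 ± 77.1 CPM, and Samd9l 123 ± 64.1 and 211 ± 78.1 CPM. Mx1, Rsad2, Cmpk2, Isg20 and Samd9l had values from -1.32 (Rsad2) to -0.58 (Isg20) in the KLRG1- gate. Among KLRG1+ cells the 6 genes ran from -0.73 (Rsad2) to -0.10 (Cmpk2), leaving out Isg20, whose levels were 261 ± 61.6 CPM in PD1+ (n = 5) and 276 ± 60.6 CPM in PD1- libraries (n = 4).

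The ADP-ribosylation genes Parp9, Parp12, Parp14 and Dtx3l ranged from -1.46 (Parp12) to -0.02 (Parp14) in the KLRG1- gate and none was called. Parp9 and Dtx3l, whose proteins form a complex, averaged 119 ± 25.2 and 101 ± 35.1 CPM in PD1+KLRG1- against 214 ± 34.8 and 184 ± 28.3 CPM in PD1-KLRG1- libraries (SD, n = 5 each). Parp12 averaged 23.8 ± 8.52 against 65.6 ± 9.96 CPM. Parp9 and Parp12 did not overlap between these groups. Among KLRG1+ cells these 4 genes ran from -1.35 (Parp12) to 0.15 (Parp14).

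The remaining genes held the smallest p-values of the set. Rtp4 (ENSMUSG00000033355), which encodes an interferon-induced chaperone and regulator of the response, was lower in PD1+ cells of both gates. It read 319, 282, 309, 246 and 320.1 CPM in PD1-KLRG1- and 66.0, 65.9, 66.2, 68.6 and 86.6 CPM in PD1+KLRG1- libraries (-2.06 ± 0.27, adjusted p = 4.07e-05). Among KLRG1+ cells it read 164, 223, 296 and 164 CPM in PD1- and 72.5, 75.5, 62.7, 71.8 and 33.7 CPM in PD1+ libraries (-1.73 ± 0.28, adjusted p = 0.00125). The 2 groups of each gate were far apart, and all 10 PD1+ libraries lay below all 9 PD1- libraries of Tri mice. Sp100 (ENSMUSG00000026222), a component of nuclear bodies, followed the same order. In KLRG1- cells it read 1193, 1155, 1075, 1275 and 914 CPM in PD1- and 455, 626, 514, 573 and 751 CPM in PD1+ libraries (-0.96 ± 0.18, adjusted p = 0.00227). In KLRG1+ cells it read 1401, 1091, 1126 and 1332 CPM in PD1- and 409, 592, 377, 761 and 526 CPM in PD1+ libraries (-1.26 ± 0.19, adjusted p = 0.000558), again with all PD1+ libraries below all PD1- libraries. Sp100 has close relatives, and how reads shared among copies were counted is not given in the sources used here.

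Ifi27l2a (ENSMUSG00000079017) was lower in PD1+KLRG1- cells and not called in the KLRG1+ gate. It read 1184, 709, 1006, 545 and 956 CPM in PD1-KLRG1- and 432, 383, 391, 245 and 314 CPM in PD1+KLRG1- libraries (-1.34 ± 0.29, adjusted p = 0.0118). Its KLRG1+ values were 459, 1219, 631 and 367 CPM in PD1- and 519, 631, 514, 305 and 380.0 CPM in PD1+ libraries, with wide overlap (-0.36 ± 0.31, adjusted p = 0.849). Its KLRG1- call ended when PD1+KLRG1- replicate 2 or 3, or PD1-KLRG1- replicate 5, was left out (adjusted p = 0.0504, 0.0554 and 0.0767). Xaf1, Ifi35, Trafd1, Trim30a, Lgals3bp and Ifi44 were not called in either gate. Xaf1, a pro-apoptotic gene, averaged 103 ± 18.9 CPM in PD1+KLRG1- and 199.8 ± 29.4 CPM in PD1-KLRG1- libraries (SD, n = 5 each), and Ifi35 184 ± 28.1 and 255 ± 28.8 CPM, both without overlap. Lgals3bp, which encodes a secreted glycoprotein, averaged 626 ± 71.5 and 706 ± 136 CPM and overlapped. Ifi44 was the only one of the 37 with a positive value in that gate (0.06 ± 2.75), at 6.08 ± 6.36 and 3.34 ± 5.93 CPM.

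**Figure D4:**
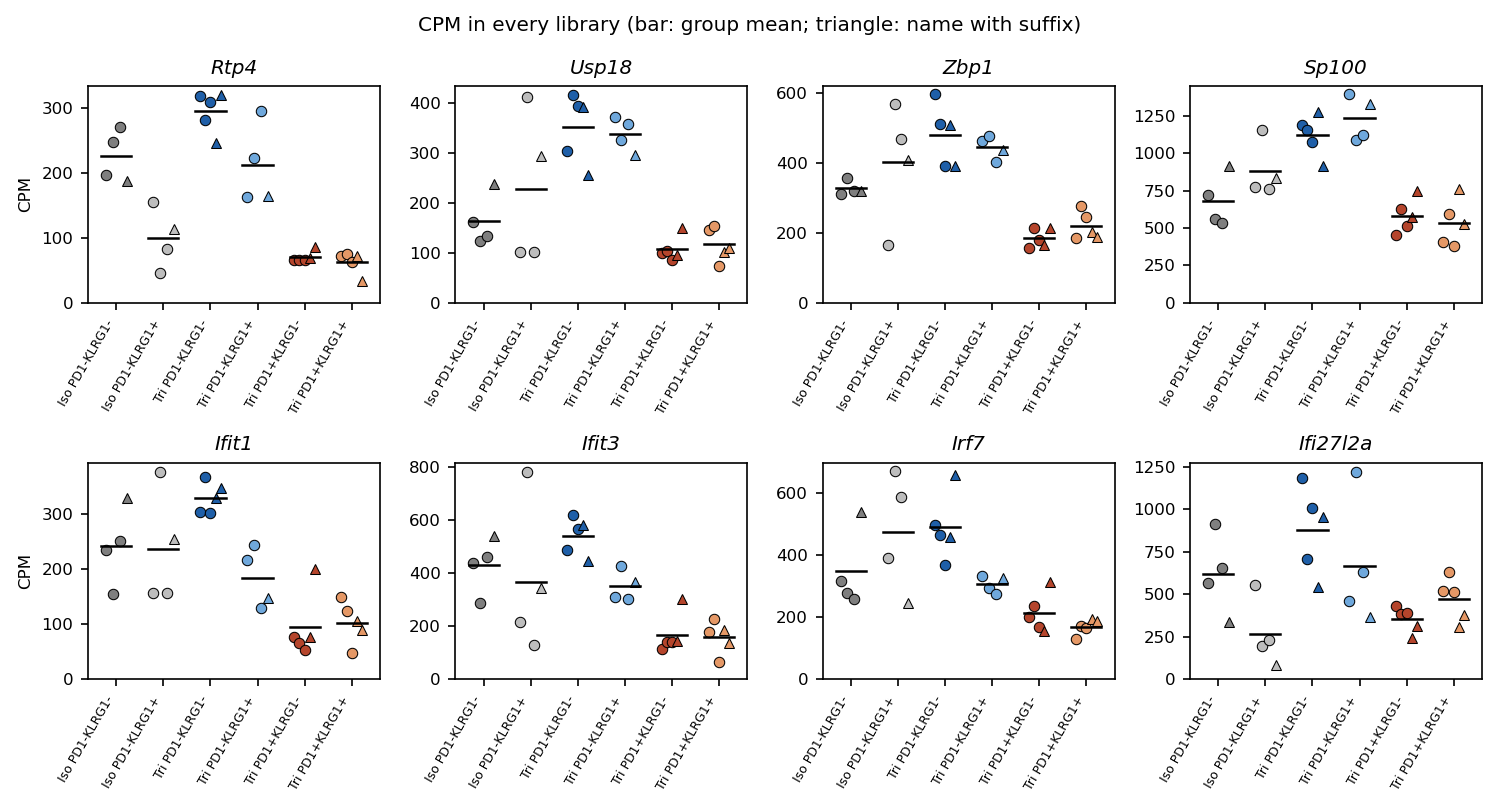
CPM (y axis, from 0) of the 8 genes called between PD1+ and PD1- cells of the KLRG1- gate, in every library by group (x axis); bars are group means and triangles libraries with the name suffix. For each gene the 5 Tri PD1+KLRG1- libraries lie below the 5 Tri PD1-KLRG1- libraries, and Iso PD1-KLRG1+ is widely spread for most genes.

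Within each name series the direction of every called gene was kept, with fewer calls. In the plain libraries alone (3 against 3 in either gate) the 8 KLRG1- genes had log2 fold changes from -2.31 (Ifit1) to -1.09 (Sp100), and 6 of the 37 genes were called. In the suffix libraries alone (2 against 2) they ran from -1.84 (Rtp4) to -0.70 (Sp100) and none was called. For Rtp4, Usp18, Zbp1 and Sp100 in the KLRG1+ gate, the plain libraries gave -1.66 to -0.88 and 2 calls. The suffix libraries (2 against 1) gave -1.64 to -1.05 for these genes. Shares of all genes called in the fits of a single series are not given here, so their counts of calls are a description only. The median over the 37 genes was -1.19 and -0.79 in the KLRG1- gate, and -0.89 and -0.64 in the KLRG1+ gate, for the plain and suffix libraries.

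Myeloid and other marker genes were measured beside these differences. The 15 myeloid markers summed to 261 to 748 CPM in PD1+KLRG1- and 263 to 598 CPM in PD1-KLRG1- libraries, and none of the 15 was called in that comparison. The KLRG1+ gate had sums of 253 to 794 CPM in PD1+ and 216 to 290.03 CPM in PD1- libraries, with 12 of 15 values positive and none called. The macrophage marker Adgre1 had no count in either PD1- group of Tri mice or in PD1+KLRG1+, and 1.99 ± 2.39 CPM in PD1+KLRG1-. Of the 5 plasmacytoid dendritic cell markers, Siglech had no count in either PD1+ group, and none was called between PD1+ and PD1- cells. Tcf4, which is not specific to those cells, averaged 44.6 ± 11.8 CPM in PD1+KLRG1- and 2.70 ± 5.95 CPM in PD1-KLRG1- libraries without overlap (adjusted p = 0.52, edgeR; SD, n = 5 each). With KLRG1+ it averaged 24.6 ± 16.0 (n = 5) and 1.35 ± 1.85 CPM (n = 4; adjusted p = 0.462, edgeR). Ccr9 was lower on average in PD1+ cells, at 0.564 ± 0.899 against 4.38 ± 3.10 CPM in the KLRG1- gate, and at 0 in every PD1+KLRG1+ library against 8.38 ± 6.24 CPM (adjusted p = 0.759 and 0.052, edgeR). The 10 tumour and stroma markers summed to 38.4 to 154 CPM in PD1+KLRG1- and 76.02 to 145 CPM in PD1-KLRG1- libraries, and to 0.451 to 61.3 and 36.5 to 61.7 CPM in the KLRG1+ gate, with none called. The CD4 and regulatory T cell markers summed to 236 ± 73.9 CPM in PD1+KLRG1- and 149 ± 77.8 in PD1-KLRG1- (SD, n = 5 each), with none of 5 called. For KLRG1+ cells they summed to 218 ± 48.7 (n = 5) and 79.8 ± 11.3 CPM (n = 4). Their part in the result was not tested.

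Among Tri PD1+ cells none of the 37 was called between KLRG1+ and KLRG1- cells in edgeR, where 0.0569% of all genes were called, and 1 had an unadjusted p under 0.05. DESeq2 called 1 and limma-voom none. The 3 smallest p-values belonged to Oas2, Stat2 (-0.75 ± 0.38, adjusted p = 0.787) and Ifi35 (-0.32 ± 0.18, adjusted p = 0.907). The median was -0.06 over the 37 and -0.07 over all genes.

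Among Tri PD1- cells 34 of the 37 genes had a negative value (KLRG1+ minus KLRG1-), with a median of -0.32 against -0.01 for all genes, and none was called. The background was 0, since no gene of the 14059 was called in edgeR. DESeq2 and limma-voom also called none of the 37, and 3 had an unadjusted p under 0.05. They were Isg20, an exonuclease gene (-0.65 ± 0.25, adjusted p = 0.993), Irf7 (-0.63 ± 0.26, adjusted p = 0.993) and Ifit1 (-0.78 ± 0.35, adjusted p = 1). The libraries of the 2 groups did not overlap for 5 of the 37 (Ifit1, Ifit3, Irf7, Parp9 and Parp12, all lower in KLRG1+), against 0.875% of all genes in that direction. The comparison shares its Tri PD1- libraries with the PD1 comparisons above.

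In Iso PD1- cells Rtp4 and Ifi27l2a were lower in KLRG1+ cells. Rtp4 read 197, 248, 271 and 188 CPM in KLRG1- and 155, 45.5, 82.8 and 113 CPM in KLRG1+ libraries, without overlap (-1.15 ± 0.30, adjusted p = 0.0167). Ifi27l2a read 567, 912, 654 and 338 against 557, 198, 230.0 and 81.5 CPM, with overlap (-1.26 ± 0.33, adjusted p = 0.0161). These 2 of 37 stand beside 7.43% of all genes called lower, and the median of the 37 was -0.26 where that of all genes was -0.52. Every KLRG1+ library lay below every KLRG1- library for 2 of the 37, against 16.2% of all genes. The 82.8 CPM of Rtp4 in KLRG1+ replicate 3 rested on 9 counts. The Rtp4 call ended without Iso PD1-KLRG1- replicate 3 (adjusted p = 0.052) and the Ifi27l2a call without Iso PD1-KLRG1+ replicate 4 (adjusted p = 0.054), while 4 genes were called without Iso PD1-KLRG1+ replicate 2 or 4. Limma-voom with sample weights, which gives less weight to variable libraries, called none. Ccr9, from the plasmacytoid dendritic cell list, was at 21.2 ± 4.98 CPM in KLRG1- and at 0 in all 4 KLRG1+ libraries of Iso mice (adjusted p = 0.0299, edgeR). Tcf4, the other marker of that list tested, went the other way (log2 fold change 1.2, KLRG1+ minus KLRG1-) and was not called. The part of these markers was not tested.

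Other named genes varied widely within Iso PD1-KLRG1+. Isg15 read 128, 240.3, 217 and 132 CPM in the KLRG1- and 39.4, 361, 202 and 89.8 CPM in the KLRG1+ libraries of Iso mice. Irf7 read 316, 279, 258 and 539 against 391, 672, 589 and 246 CPM. Usp18 read 161, 125, 135 and 238 against 102, 412, 101 and 294 CPM. For each of these genes the KLRG1+ libraries lay on both sides of the range of the KLRG1- libraries. Stat2 read 74.3, 90.6, 124 and 164 against 41.7, 92.7, 239 and 52.6 CPM. Irf9 read 158, 143, 145 and 174 against 272, 90.3, 469 and 311 CPM. Bst2 read 187, 321, 297 and 207 against 118, 229, 138 and 93.3 CPM. Replicate 3, the library of 93198 counts, had the highest Stat2 and Irf9 values of its group.

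Treatment was compared among PD1- cells. In PD1-KLRG1- cells none of the 37 genes was called between Tri and Iso in edgeR, beside 0.804% of all genes called in either direction. A positive value (Tri minus Iso) was found for 27 of the 37, the median was 0.30 against -0.09 for all genes, and 4 had an unadjusted p under 0.05. DESeq2 called 2 of the 37 and limma-voom with sample weights 5, all higher in Tri, and edgeR called 1 without Tri PD1-KLRG1- replicate 5. Shares of all genes called by these fits in this comparison are not given here, so the counts are a description only. The 3 smallest p-values belonged to Sp100, Usp18 and Zbp1. Sp100 read 725, 560.3, 534 and 916 CPM in Iso and 1193, 1155, 1075, 1275 and 914 CPM in Tri (0.70 ± 0.19, adjusted p = 0.0842). Usp18 read 161, 125, 135 and 238 against 304, 417, 393, 393 and 256 CPM (1.10 ± 0.33, adjusted p = 0.136). Zbp1 read 311, 357, 319 and 320.3 against 597, 511, 391, 509 and 389.7 CPM (0.56 ± 0.23, adjusted p = 0.439). The libraries overlapped narrowly for Sp100 and did not overlap for Usp18 and Zbp1. Every Tri library was above every Iso library for 4 of the 37 (also Oas1a and Irf9), against 2.4% of all genes. Within the plain libraries the median was 0.41 and within the suffix libraries (2 against 1) 0.11. The Iso libraries also carried more myeloid RNA (986 to 4469 CPM summed, against 263 to 598 in Tri, with 2 of the 15 markers called lower in Tri). Their tumour and stroma markers summed to 115 to 273 CPM, against 76.02 to 145 in Tri. Of the 7 tested Col1a1 was called lower in Tri (adjusted p = 0.0278, edgeR), and 4 had an unadjusted p under 0.05, all lower in Tri. The part of either list in these values was not tested.

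Ifit1 and Ifit3 read 233, 154, 251 and 329 and 439, 287, 460.3 and 542 CPM in Iso PD1-KLRG1- libraries, of which 3 of 4 and 2 of 4 lay below every Tri PD1-KLRG1- library. Since Tri PD1-KLRG1- libraries enter this comparison and the PD1 comparison, their values move both.

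In PD1-KLRG1+ cells Rtp4 and Ifi27l2a were higher in Tri than in Iso. Rtp4 read 164, 223, 296 and 164 CPM in Tri and 155, 45.5, 82.8 and 113 CPM in Iso, the Tri libraries all above the Iso libraries (1.06 ± 0.30, adjusted p = 0.0365). Ifi27l2a read 459, 1219, 631 and 367 against 557, 198, 230.0 and 81.5 CPM, with overlap (1.37 ± 0.33, adjusted p = 0.0132). The 2 of 37 stand beside 5.46% of all genes called higher, a share close to theirs. All Tri libraries lay above all Iso libraries for 1 of the 37, against 8.73% of all genes. The Rtp4 call ended without Iso PD1-KLRG1+ replicate 2 or 3 (adjusted p = 0.0829 and 0.0505) or Tri PD1-KLRG1+ replicate 2 or 3 (0.0555 and 0.125), and the Ifi27l2a call without Tri PD1-KLRG1+ replicate 2 (0.0569). Without Iso PD1-KLRG1+ replicate 2 or 4, 4 genes were called. Of the 15 myeloid markers 4 were called lower in Tri (Lyz2, Fcer1g, Cd74 and Apoe), with sums of 230 to 11783 CPM in Iso and 216 to 290.03 CPM in Tri. The tumour and stroma markers summed to 82.8 to 3798 CPM in Iso and 36.5 to 61.7 CPM in Tri, and Col1a1 (-6.31 ± 1.74, adjusted p = 0.0301) and Fn1 (-6.98 ± 1.47, adjusted p = 0.00427) were called lower. The part of these markers in the 2 calls was not tested. Both rest on the Iso PD1-KLRG1+ libraries that also enter the KLRG1 comparison in Iso. The median of the 37 was 0.21, below the 0.34 of all genes, and became -0.02 against 0.15 under median-ratio scaling, so no direction of the set is given.

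Zbp1, Sp100, Ifit1 and Ifit3 were spread widely in Iso PD1-KLRG1+. Zbp1 read 166, 569, 469 and 407 CPM and Sp100 777, 1158, 764 and 833 CPM in its 4 libraries. Ifit1 read 156, 376, 156 and 254 CPM and Ifit3 218, 782, 129 and 344 CPM. Each of these genes had a library above and a library below the Tri PD1-KLRG1+ mean, except Sp100, whose Tri mean of 1238 CPM exceeded all 4.

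**Figure D5:**
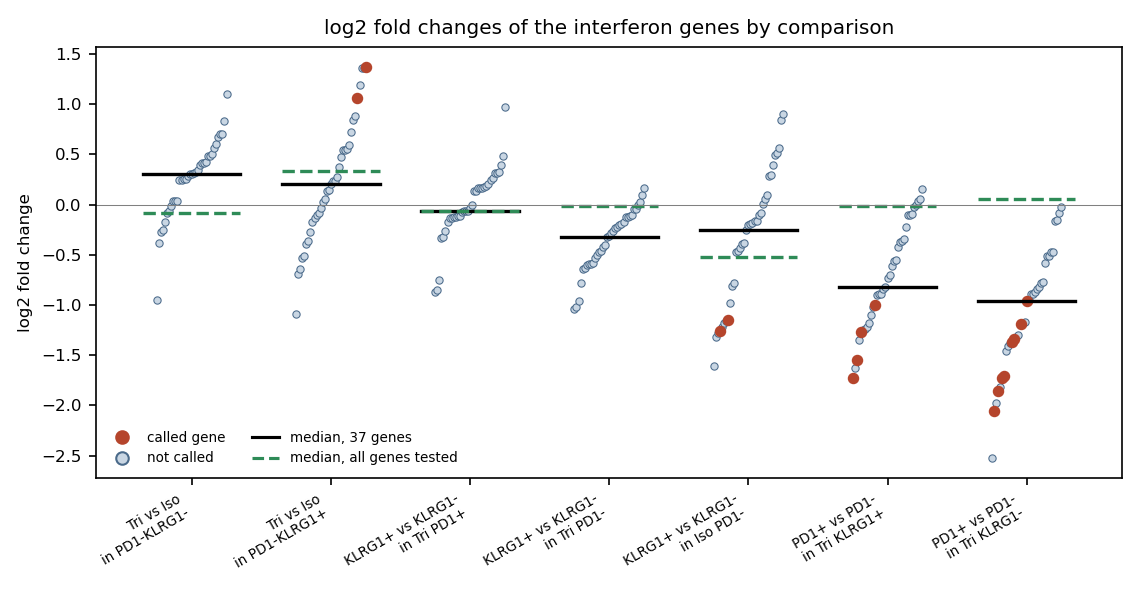
log2 fold change (y axis) of 35 of the 37 genes in each of the 7 comparisons (x axis), Oas2 and Ifi44 left out; red points are called, black lines the median of all 37 and dashed green lines the median of all 14059 genes tested. The black line lies well below the green line in both PD1 comparisons (-0.82 and -0.96) and above it for Tri against Iso in PD1-KLRG1- cells.

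The tests of differences between these effects called none of the 37. For KLRG1 by treatment in PD1- cells, where 3.59% of all genes were called in edgeR, 2 of the 37 had an unadjusted p under 0.05, DESeq2 called 1 and limma-voom none. Irf7 had the smallest p: KLRG1+ minus KLRG1- was -0.63 ± 0.26 in Tri and 0.49 ± 0.27 in Iso (difference -1.12 ± 0.37, adjusted p = 0.0912). Parp9 (-0.99 ± 0.45, adjusted p = 0.228) and Rtp4 (0.65 ± 0.41, adjusted p = 0.465) followed. Without Iso PD1-KLRG1+ replicate 1, Iso PD1-KLRG1+ replicate 4 or Iso PD1-KLRG1- replicate 4, edgeR called 1, 2 and 1 of the 37. For KLRG1 by PD1 in Tri the background was 0 of 14059 genes, 1 of the 37 had an unadjusted p under 0.05, DESeq2 called 1 and limma-voom none. There Ifi27l2a had the smallest p (0.98 ± 0.42, adjusted p = 0.919), ahead of Ifit1 (0.97 ± 0.47, adjusted p = 1) and Oas2. The genes called in the KLRG1- gate and not in the KLRG1+ gate were thus not shown to differ between the gates.

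Of 12 ligand genes, 10 had no count at all. Ifnb1, Ifna1, Ifna2, Ifna4, Ifna5, Ifna11, Ifna12, Ifne, Ifnk and Ifnl2 had 0 of 371129229 counts over the 27 libraries, which allows up to 0.00808 CPM each, counting error only. Ifnl3 had 16 counts. Ifng, the interferon that T cells make, was the only ligand tested and was not called. It read 191, 219, 200.4 and 67.0 CPM in PD1-KLRG1+ and 474, 479, 565, 462 and 388 CPM in PD1+KLRG1+ libraries, which did not overlap (1.53 ± 0.43, adjusted p = 0.0852). Among KLRG1- cells it read 198, 135, 151, 106 and 498 CPM in PD1- and 359, 434, 409.9, 268 and 306 CPM in PD1+ libraries (0.67 ± 0.39, adjusted p = 0.739).

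The receptor genes Ifnar1 and Ifnar2 and the kinase genes Jak1 and Tyk2 were not called in any comparison. Ifnar1 had -0.42 ± 0.44 in the KLRG1- and -0.58 ± 0.47 in the KLRG1+ gate, and Ifnar2 -0.80 ± 0.47 and -1.16 ± 0.50. Jak1 had -0.62 ± 0.26 and -0.85 ± 0.27, and Tyk2 -0.17 ± 0.72 and 0.45 ± 0.77.

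Irf1, a factor induced by both interferon types, was lower in PD1+ cells of both gates (-1.24 ± 0.20, adjusted p = 0.000402, and -0.94 ± 0.21, adjusted p = 0.0153). It read 516, 572, 632, 758 and 448 CPM in PD1-KLRG1- and 250.1, 182, 231, 322 and 273 CPM in PD1+KLRG1- libraries, without overlap. The interferon gamma receptor gene Ifngr1 was lower in PD1+KLRG1- cells (865 ± 79.4 against 1469 ± 194 CPM, log2 fold change -0.77 ± 0.17, adjusted p = 0.0152, edgeR). In the KLRG1+ gate Ifngr1 was at 887 ± 168 CPM in PD1+ (n = 5) and 1438 ± 210 CPM in PD1- libraries (n = 4), without overlap and without a call.

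Irf8, a factor of the same family that antigen receptor signals induce in T cells, was higher in PD1+ cells of both gates. It read 814, 625, 894, 648 and 596 CPM in PD1+KLRG1- and 119, 111, 208, 98.8 and 135 CPM in PD1-KLRG1- libraries (2.41 ± 0.31, adjusted p = 2.53e-05). In the KLRG1+ gate it was at 732 ± 127 (n = 5) against 144 ± 26.5 CPM (n = 4; 2.37 ± 0.33, adjusted p = 0.000558). Stat3, the transducer of several interleukins, was higher in PD1+KLRG1- cells (1.01 ± 0.20, adjusted p = 0.00424), every PD1+ library above every PD1- library. Of 12 sensors and adaptors tested none was called in any of the 7 comparisons. Of the 9 brakes, Socs1 was called lower in KLRG1+ cells of Iso (-0.94 ± 0.30, adjusted p = 0.0498, edgeR), at the threshold and with overlapping libraries. This 1 of 9 stands beside 7.43% of all genes called lower. No brake was called in either PD1 comparison, where Socs1 had -0.93 ± 0.26 (adjusted p = 0.074, edgeR) and -0.48 ± 0.28.

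Among 45 further type I responsive genes outside the set, 12 were lower and none higher in PD1+KLRG1- cells (0.939% of all genes were called lower), with a median of -0.91 against 0.06 for all genes. This list too was chosen with earlier results of these data known, so its shares are a description only. In the KLRG1+ gate 7 were lower and none higher (0.711% of all genes), with a median of -0.70 against -0.01. Ly6c2, a surface marker of memory and effector CD8+ T cells, had -2.32 ± 0.24 (adjusted p = 3.25e-06) and -1.59 ± 0.25 in the KLRG1- and KLRG1+ gates. Ifit1bl1 (-2.15 ± 0.29 and -1.84 ± 0.30), Epsti1 (-1.86 ± 0.24 and -1.41 ± 0.24), Slfn1 (-1.66 ± 0.21 and -1.38 ± 0.22), Sp110, Gbp7 and Ms4a4b were lower in both gates too. Ifi208, Ifi209, Ifi213 and Lgals9 were among those lower in the KLRG1- gate. In Tri against Iso PD1-KLRG1- cells 3 of the 45 were higher, beside 0.804% of all genes called in either direction. Ly6a (1.17 ± 0.29, adjusted p = 0.0484) and Ms4a4b (0.61 ± 0.15, adjusted p = 0.0484) were among those higher, and the median of the 45 was 0.23 against -0.09 for all genes. In PD1-KLRG1+ cells Ms4a4b was higher in Tri (0.96 ± 0.16, adjusted p = 0.000371). This 1 of 45 stands beside 5.46% of all genes called higher, with medians of 0.336 for the 45 and 0.338 for all genes. In Iso PD1- cells Ifi213 (-1.15 ± 0.33, adjusted p = 0.03) and Mndal (-0.81 ± 0.23, adjusted p = 0.0278), of a family of DNA sensors with similar sequences, were lower in KLRG1+ cells. These 2 of 45 stand beside 7.43% of all genes called lower, with medians of -0.226 for the 45 and -0.524 for all genes. In these last 2 comparisons the share of the 45 called was below that of all genes.

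The 17 genes tested that respond mainly to interferon gamma had medians of -0.94 in both gates, against the 0.06 and -0.01 of all genes given above. In the KLRG1- gate 5 were lower, beside the 0.939% of all genes: Igtp, Irf1, Gbp2, Gbp4 and Irgm2. In the KLRG1+ gate Irf1 and Igtp were lower (2 of 17, beside 0.711% of all genes), with Igtp at -1.75 ± 0.23 and -1.40 ± 0.24 in the 2 gates (adjusted p = 4.07e-05 and 0.00172). This list, like the others, was chosen with earlier results of these data known. A difference between this list and the 37 genes was not tested. Irf1 and Socs1 stand in 2 of the lists.

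Over the 27 libraries, which share group, depth and name series, the Pearson correlation of a gene with the mean of the other 36 ran from 0.143 (Ifi44) to 0.815 (Ifit3), with a median of 0.533. After each group's mean was subtracted, the median was 0.266 and 7 genes were below 0. Usp18 (0.736), Rsad2 (0.731), Oasl2 (0.714), Oas1a (0.698), Ifit1 (0.68), Lgals3bp (0.662) and Ifit3 (0.649) kept the highest values. Ifi27l2a (-0.615) and Rtp4 (-0.424), both called between groups in several comparisons, had the lowest. Without Iso PD1-KLRG1+ replicate 3 the median was 0.312.

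Outside the lists, among genes averaging 20 CPM or more, those whose log2(CPM + 1) was most like the mean of the 37 were Tgtp2 (Pearson r = 0.807 over 27 libraries), Emb (0.806), Ehd3 (0.792), Satb1 (0.787), A930005H10Rik (0.786), Gimap6 (0.786), Id3 (0.78), Rgs10 (0.778), Cd69 (0.773) and Abi3 (0.756), of 7207 genes screened. Tgtp2 is an interferon-inducible GTPase gene, and Satb1 and Id3 are transcription factor genes of resting and memory T cells. From Tri PD1-KLRG1- to Tri PD1+KLRG1-, mean levels went from 1123 to 371 CPM for Tgtp2, 289.6 to 95.9 for Satb1 and 39.0 to 2.36 for Id3. At the opposite end stood Anxa2 (-0.739), Mt1 (-0.725) and Prf1 (-0.695), the perforin gene. These values are a description, since any gene that differs between PD1+ and PD1- cells shares the same pattern over these libraries.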

How the data were processed

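The deposited file held counts per gene, whole numbers with no normalization applied by the authors, for 27 libraries and 47729 Ensembl gene IDs, and the labels' descriptions gave each column its sample. DESeq2 1.26.0 is named in the submitters' processing notes with no role, and the sources used here give no aligner, counting tool, strand setting, build or annotation. GENCODE M21 names were found for 47224 IDs and not for 505. Genes were kept by filterByExpr at a minimum count of 10 in edgeR 4.0.16 (R 4.3.3), which left 14059. A robust quasi-likelihood model with TMM scaling, group means and a term for the name series was fitted to all 27 libraries. P-values were adjusted by Benjamini-Hochberg over all genes, and an adjusted p under 0.05 was called. SEs were taken as |log2 fold change| over the root of the F statistic. CPM use TMM-scaled library sizes, levels are log2(CPM + 1), and levels per kb use the union of GENCODE M21 exons. Library totals ran from 93198 to 26284630 counts, so a zero allows less in deep libraries, and the limit used is 3 counts.

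The 37 genes and the other lists were chosen with earlier results of these data known. Every gene called in any comparison is described with the value in every library, as are Isg15, Irf7, Stat2, Irf9, Usp18 and Bst2. Where none was called, the 3 genes of smallest p are named. The alternatives were other scaling, filters, name-series handling, replicate blocks, DESeq2 1.42.0, limma-voom (limma 3.58.1), and fits without single libraries or groups. The main edgeR fit was tested on simulated counts, for PD1+ against PD1- cells of the Tri KLRG1- gate only. An item of the pathway lists is not reported here.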

Additional observations from a re-analysis of the deposited data

Results flagged for a closer look

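Among 84 groups of 4 or 5 libraries checked (13 genes and the mean of the 37, in 6 groups each), 8 held a library whose gap to the nearest of the others was above Dixon's critical value, and chance gives about 1 in 20 groups. Tri PD1+KLRG1- replicate 5 was the highest of its group in 4 of them. Its mean over the 37 genes was 6.624 on the log2(CPM + 1) scale, against 5.946 to 6.027 in the other 4 libraries. It also read 199.8 CPM of Ifit1 (others 52.4 to 77.19), 304.1 CPM of Ifit3 (others 113 to 145.3) and 86.62 CPM of Rtp4 (others 65.94 to 68.61). Rtp4 was lowest in Tri PD1+KLRG1+ replicate 5, at 33.69 CPM against 62.72 to 75.5. Stat2 was highest in Tri PD1-KLRG1- replicate 5, at 297.5 CPM against 102.5 to 114.5. Irf9 was lowest in Tri PD1+KLRG1+ replicate 2, at 1.58 CPM against 97.16 to 232.1. Oas2 read 53.61 CPM in Iso PD1-KLRG1+ replicate 4 and had no count in the other 3 libraries of that group.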

How the results depend on the processing

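For single genes named in the comparisons, 299 results under an alternative kept direction and call, 74 kept the direction and lost the call, and none reversed. Counts of the 37 genes called moved more, and the cause was not tested. Shares of all genes called are not given beside these counts. Fits that call more of the 37 can call more of all genes too, so a higher count is no stronger result for the set. PD1+ against PD1- in KLRG1- cells (8 called) gave 0 in the suffix libraries alone (2 against 2) and 21 with only the groups compared. It gave 29 by limma-voom with sample weights and 14 by limma-voom with a random block (added after seeing the data). Without the 4 Iso PD1-KLRG1+ libraries (added likewise) it gave 14, and its median was -1.19 in the plain libraries. In KLRG1+ cells (5 called) the PD1 comparison gave 3 under RLE scaling and 2 in the plain libraries. It gave 8 without 3 distant libraries (replicates 3 and 4 of Iso PD1-KLRG1+ and 5 of Tri PD1-KLRG1-) and 10 without the 4 Iso PD1-KLRG1+ libraries. Tri against Iso in PD1-KLRG1- (0 called) gave 1 with no count filter, 1 with only the groups compared, 5 by limma-voom with sample weights, 2 by DESeq2, 1 without those 3 libraries and 2 without those 4, with a median of 0.109 in the suffix libraries. Tri against Iso in PD1-KLRG1+ (2 called) gave 1 under RLE scaling, with no filter, with no name-series term and in the plain libraries, 4 in the suffix libraries (1 library against 1, assumed to vary like the other groups), and 0 with only the groups compared and by both limma-voom fits. KLRG1+ against KLRG1- in Iso (2 called) gave 1 with no filter or no name-series term, 0 with only the groups compared or sample weights, 8 with the random block (added) and 4 without the 3 libraries. In Tri PD1+ DESeq2 called 1. The KLRG1 by treatment interaction (0 called) gave 1 under RLE scaling, in the plain libraries, in the suffix libraries (3 of its 4 arms hold 1 library there, assumed to vary like the others) and by DESeq2, and 3 without the 3 libraries, and the KLRG1 by PD1 interaction gave 1 by DESeq2.

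Leaving out single libraries gave 7 to 8 calls for PD1 in KLRG1- cells (median -1.07 to -0.908), 2 to 5 in KLRG1+ cells (-0.925 to -0.633), 0 to 1 for Tri against Iso in PD1-KLRG1- (0.212 to 0.347), 0 to 4 in PD1-KLRG1+ (-0.00669 to 0.346), 1 to 4 for KLRG1 in Iso (-0.578 to -0.0543) and 0 to 2 for KLRG1 by treatment. KLRG1 in Tri kept 0 calls (medians -0.133 to 0.143 in PD1+ and -0.421 to -0.283 in PD1-). RLE scaling moved the median of all genes from 0.338 to 0.146 for Tri against Iso in PD1-KLRG1+, from -0.524 to -0.366 for KLRG1 in Iso and from -0.0124 to 0.0879 for PD1 in KLRG1+ cells. The mean over the genes of at least 10 CPM in PD1-KLRG1- cells was 7.192 (Iso) and 7.45 (Tri), and it was 7.074 for Tri PD1-KLRG1+ and 6.248 for PD1+KLRG1+, higher because the 2 lowest genes are left out. Over all genes, 219 and 169 were called for PD1 in KLRG1- and KLRG1+ cells, against 522 and 699 by DESeq2 and 2018 and 547 by limma-voom with sample weights.

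Same-numbered libraries correlated over 0.1 in 0 of 4 Iso pairs and 10 of 27 Tri pairs after group means were removed. Their median correlation was 0.0273 in Iso and 0.0577 in Tri, against -0.05 and -0.053 for the others. In Iso 5 of 8 and in Tri 9 of 19 libraries correlated best with their own number. With the name series also removed, 0 of 8 and 7 of 19 did. These values did not settle whether equal numbers mark the same mouse. The main fit left the numbers out, so a pairing that it ignores remains possible. A replicate block on the animal label gave 10 and 4 calls for PD1 in KLRG1- and KLRG1+ cells, and a replicate block on the number gave 0 and 1 for Tri against Iso in PD1-KLRG1- and PD1-KLRG1+. Depth limits Iso PD1-KLRG1+ replicate 3 (93198 counts) and genes near 0 such as Oas2 and Ifi44.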
